A study of Homo sapiens with 4 samples.

Results

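NFE2L2, which encodes the transcription factor NRF2, its inhibitor KEAP1 and 7 antioxidant genes (NQO1, HMOX1, GCLC, GCLM, TXNRD1, SRXN1 and SOD2) were followed in OVCAR5 cells carrying a short hairpin RNA against FOXK2. The 9 genes were chosen by name with earlier results of these data known, and each was taken from the count tables by its symbol. They are 9 of 56655 symbols in the tables, and all 9 passed the filter on low counts that left 16417 genes for testing. OVCAR5 is an established human ovarian cancer line, labelled as high grade serous and as derived from ascites, and was used at passage 4-6. Cells were stably transduced with lentivirus and selected with puromycin, either with a nontargeting hairpin in pLKO.1-puro (shCtrl, n = 2 libraries) or with a FOXK2-directed hairpin (shFOXK2, n = 2 libraries). Polyadenylated RNA was sequenced from each. The duplicates are called biological by the submitters, but no label says whether they were separate transductions, so P values measure the spread between these libraries. The comparison asks how expression differs between cells with the FOXK2 hairpin and cells with the control hairpin.

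NRF2 is a basic leucine zipper protein that is held in the cytoplasm and marked for destruction by KEAP1, an adaptor of a cullin 3 ubiquitin ligase. When oxidants or electrophiles modify cysteines of KEAP1, NRF2 accumulates, pairs with a small MAF protein and binds the antioxidant response element (ARE) near genes for glutathione synthesis, thioredoxin recycling, quinone reduction and heme breakdown. BACH1, a repressor, competes for the same element. SOD2 is a mitochondrial antioxidant enzyme that is better known as a gene induced by inflammatory cytokines.

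The ARE core, TGACNNNGC, was searched on both strands of RefSeq promoter windows of GRCh38.p14, which run from 250 bases before to 50 bases after a start site. Windows were found for 8 of the 9 genes, all but HMOX1. The core was present for KEAP1, GCLM and TXNRD1, that is in 3 of 8, against 16.1% of 27305 genes and 13.3% of 35116 windows. Sequence outside these windows was not searched, so a gene without a core here may hold one farther away. The sites of these 3 genes within the 5′ flank are shown because 1 of the genes rose, 1 fell and 1 did not pass the test. Sequences are written 5′ to 3′ on the gene's strand. Capitals mark the core, and where the core lies on the opposite strand they show its reverse complement.
GCLM, chr1:93909446-93909474, positions -34 to -26 relative to the start site: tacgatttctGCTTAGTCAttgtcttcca
TXNRD1 first start site, chr12:104215670-104215698, positions -99 to -91: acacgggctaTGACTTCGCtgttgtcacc
TXNRD1 second start site, chr12:104286920-104286948, positions -102 to -94: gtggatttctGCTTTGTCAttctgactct
KEAP1 second start site, chr19:10502784-10502812, positions -31 to -23: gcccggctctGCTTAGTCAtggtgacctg
KEAP1 second start site, chr19:10502807-10502835, positions -54 to -46: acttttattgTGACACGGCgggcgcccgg
The GCLM site and the KEAP1 site nearest to its start carry the same core letters, TGACTAAGC. TXNRD1 has 1 further match that spans its first start site. The AP-1 motif TGANTCA, held by 9.37% of genes, and the forkhead motif TGTTTAC, held by 4.19%, were found in the windows of 0 of the 8 genes.

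Expression of 5 of the 9 genes differed between the groups. SOD2, SRXN1, HMOX1 and TXNRD1 were lower in shFOXK2 cells, GCLM was higher, and NFE2L2, KEAP1, NQO1 and GCLC did not pass the threshold, an adjusted P value of 0.05 in edgeR's quasi-likelihood test. These 5 of 9 (55.6%) stand beside 48.4% of all tested genes that passed. The 4 lower genes (44.4%) stand beside 22.7% of tested genes called lower, and the 1 higher gene (11.1%) beside 25.7% called higher. In 7 of the 9 genes the groups did not overlap, compared with 75.4% of all tested genes. With an offset on either GC or adenine content of the transcript, 3 of the 9 passed. Of all 16417 tested genes, 8698 passed with the GC-content offset and 8412 with the adenine offset. The median log2 fold change of the 9 genes was -0.36, and that of all tested genes was 0.04. RNA was taken from bulk cultures, so fewer cells of a type and less RNA per cell cannot be told apart.

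**Figure D1:**
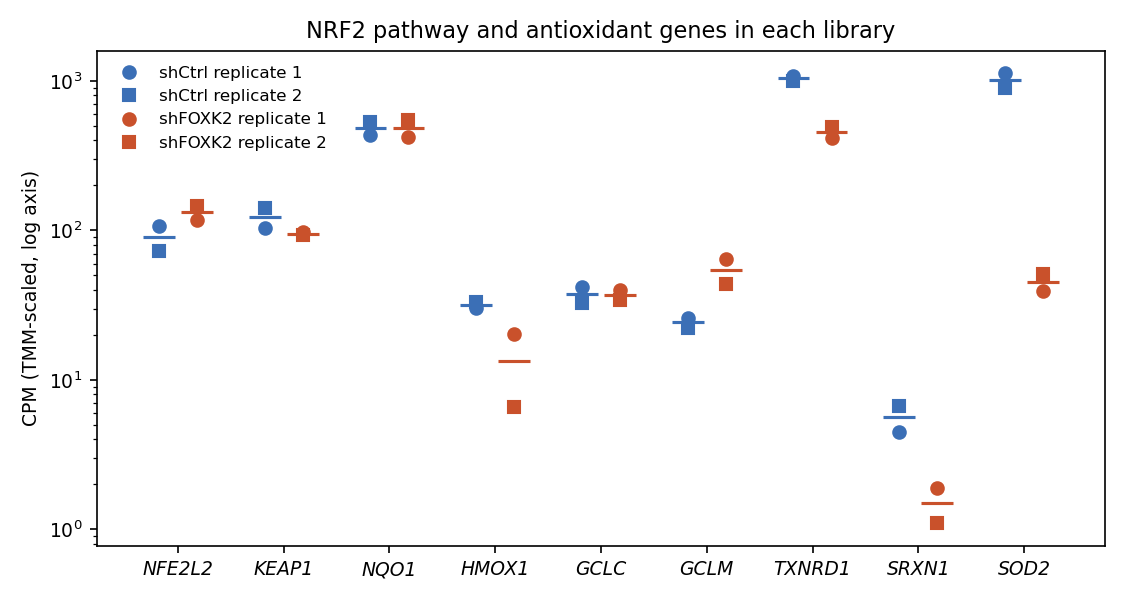
Expression of the 9 genes in each of the 4 libraries, in CPM (scaled counts, log axis); circles are replicate 1, squares replicate 2, and lines are group means. The shFOXK2 libraries lie below both shCtrl libraries for SOD2, SRXN1, HMOX1, TXNRD1 and KEAP1, and above them for GCLM and NFE2L2. The groups overlap for NQO1 and GCLC.

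The targeted gene and the libraries were examined first. FOXK2 read 80.5 and 93.4 CPM in the shCtrl libraries and 76.3 and 59.6 CPM in the shFOXK2 libraries, where CPM is the count divided by the TMM-adjusted library size and brought to a common scale. The groups did not overlap, but the log2 fold change of -0.36 (SE 0.25, adjusted P = 0.257, edgeR) did not pass. It was -0.062 with a GC-content offset and -0.031 with an adenine offset. The paper reports that its FOXK2 hairpins lowered FOXK2 mRNA by qRT-PCR and FOXK2 protein by Western blot in OVCAR5 cells. Only 1 of these hairpins was sequenced, so its off-target effects cannot be told apart from those of FOXK2. Library totals ran from 14284005 to 21950873 counts, and 3 counts, the detection floor used here, were 0.134 to 0.211 CPM. All 6 epithelial markers lay above that floor in every library, with summed levels of 3587 to 5067 CPM, most of it from keratins. Within that list CDH1, the epithelial cadherin, fell by 4.02 on the log2 scale, from 459 and 260 counts to 13 and 24 (adjusted P = 5.12e-06, edgeR), and CLDN4 fell by 1.02 (adjusted P = 0.00601, edgeR). Of 6 Müllerian and ovarian markers, 2 (PAX8 and FOLR1) lay above the floor in every library. Summed levels were 39.6 and 41.5 CPM in shCtrl and 13.9 and 13.3 CPM in shFOXK2. PAX8 (log2 -0.88, adjusted P = 0.0263, edgeR) and FOLR1 (-1.42, adjusted P = 0.00368, edgeR) were called lower. MUC16 fell from 397 and 145 counts to 0 and 8 (-5.76, adjusted P = 2.45e-05, edgeR). The lineage markers WT1, ESR1 and SOX17 read 0 to 3 counts. The gastrointestinal list had 3 of 6 above the floor and summed to 16.8 to 25.0 CPM. Of its genes, LGALS4 (log2 3.13) and MUC13 (0.87) were called higher in shFOXK2, and CDX2 did not pass (-0.59, adjusted P = 0.138, edgeR). The leukocyte list had 1 of 6 (CD14; summed 18.1 and 22.6 CPM in shCtrl, 9.14 and 9.45 in shFOXK2), and PTPRC and CD3E read 0 to 3 counts. The endothelial list had 1 of 4 (PECAM1; summed 7.72 to 10.6 CPM in shCtrl, 0.633 and 2.03 in shFOXK2). PECAM1 fell by 2.45 on the log2 scale (adjusted P = 0.000536, edgeR). CDH5 went from 76 and 33 counts to 0 and 0 (adjusted P = 4.19e-05, edgeR), and VWF and KDR read 0 to 7 counts. The fibroblast list had 1 of 5 (COL1A1; summed 13.5 to 20.5 CPM), while its PDGFRB fell by 4.16 on the log2 scale. Their part in the differences below was not tested.

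Differences also moved with the base composition of the transcript across all genes. The median log2 fold change was -0.30 for 3881 genes with up to 22% adenine, 0.49 for 1772 genes with over 30% and up to 32%, and 1.27 for 1190 genes with over 32%. NFE2L2 (31.9% adenine) and GCLM (31.3%) belong to the second of these groups, and KEAP1 (21.1%) and HMOX1 (21.0%) to the first. A smooth offset on composition is therefore given beside a difference where it ends or makes a call. For a difference away from 0, it is also given where it turns the direction or moves the value by over 1.5 times. Single-gene offset values were not examined for the cell type markers, the overlapping genes, GSS, SLC3A2 or GSTP1, whose calls may depend on composition.

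NFE2L2 and KEAP1 did not pass the test. NFE2L2 (ENSG00000116044.17, hg38 chromosome 2, 177218667 to 177392756, minus strand) read 106 and 73.1 CPM in shCtrl and 118 and 146 CPM in shFOXK2. Both shFOXK2 libraries were above both shCtrl libraries, although shCtrl replicate 1 lay closer to shFOXK2 replicate 1 than to its own replicate. Means were 89.7 ± 23.5 and 132 ± 20.0 CPM (SD, n = 2 each), a log2 difference of 0.56 (SE 0.26, adjusted P = 0.0900, edgeR). Without shCtrl replicate 1 the difference was 0.82 and passed (adjusted P = 0.0245, edgeR), and with an offset on adenine content it was -0.27. Its exons overlap those of HNRNPA3 on the opposite strand, which encodes an RNA-binding protein and rose (log2 fold change 1.31, SE 0.25, adjusted P = 0.000919, edgeR), and those of AGPS on the same opposite strand, which did not pass (0.10, adjusted P = 0.793, edgeR). The strand setting of the counting is not given in the sources used here.

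KEAP1 (ENSG00000079999.14, chromosome 19, 10486125 to 10503558, minus strand) read 103 and 142 CPM in shCtrl and 97.8 and 92.7 CPM in shFOXK2. The shFOXK2 libraries lay close together just under the lower shCtrl library. The log2 difference was -0.36 (SE 0.25, 95% interval -0.89 to 0.17, adjusted P = 0.243, edgeR). It was -0.010 with a GC-content offset and -0.013 with an adenine offset. Within a library, the ratio of NFE2L2 to KEAP1 counts was 1.03 and 0.516 in shCtrl and 1.21 and 1.58 in shFOXK2. The ratio was thus higher in both shFOXK2 libraries, with an exact 2-sided permutation P of 0.333, the smallest that 2 against 2 libraries can give. This and the 3 other ratios below were chosen with the values known.

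Glutathione synthesis begins with glutamate-cysteine ligase, made of a catalytic subunit (GCLC) and a modifier subunit (GCLM) that raises its efficiency. GCLM passed the test and GCLC did not. GCLM (ENSG00000023909.10, chromosome 1, 93885199 to 93909456, minus strand) read 26.1 and 22.3 CPM in shCtrl and 64.4 and 43.5 CPM in shFOXK2. Both shFOXK2 libraries were well above both shCtrl libraries. The means, 24.2 ± 2.71 and 54.0 ± 14.8 CPM, differed by 2.22-fold (log2 fold change 1.15, SE 0.28, adjusted P = 0.00397, edgeR). This call was lost without shFOXK2 replicate 1 (0.82, adjusted P = 0.0549), with a GC-content offset (0.35, adjusted P = 0.284) and with an adenine offset (0.49, adjusted P = 0.130). GCLM stayed higher in shFOXK2 under each of these.

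GCLC (ENSG00000001084.13, chromosome 6, 53497341 to 53616970, minus strand) read 42.1 and 32.6 CPM in shCtrl and 40.1 and 34.4 CPM in shFOXK2. The shFOXK2 libraries fell between the shCtrl libraries. The log2 difference was -0.0063 (SE 0.26, 95% interval -0.57 to 0.56, adjusted P = 0.987, edgeR). The ratio of GCLC to GCLM counts was 1.61 and 1.46 in shCtrl and 0.622 and 0.790 in shFOXK2. The ratio, which is not scaled for transcript length, was lower in both shFOXK2 libraries (exact permutation P = 0.333).

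**Figure D2:**
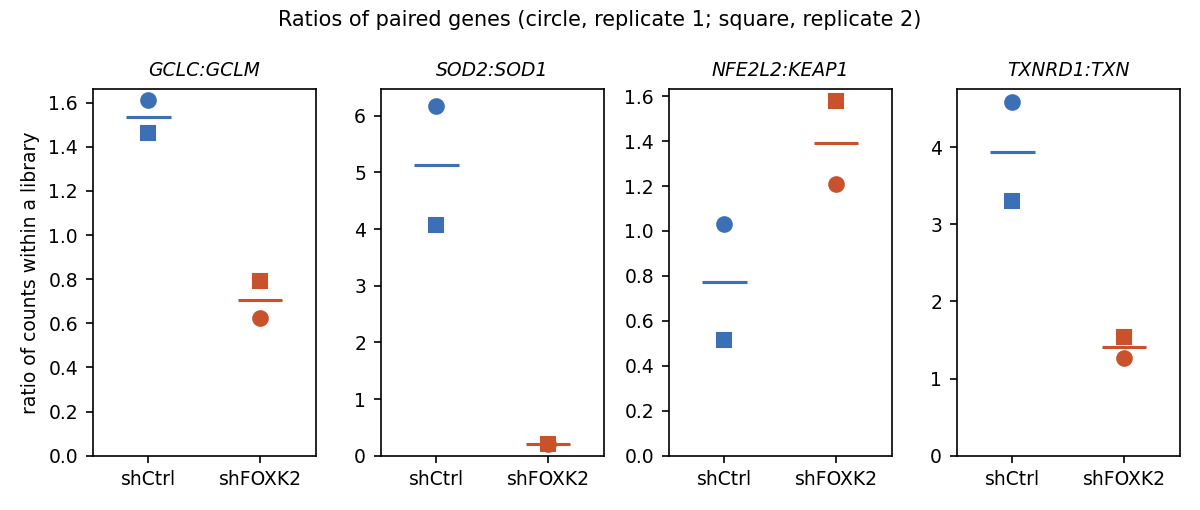
Ratios of counts of paired genes within each library, with 1 panel for each pair and a vertical axis starting at 0; circles are replicate 1, squares replicate 2, and lines are group means. Groups do not overlap in any panel, and the SOD2 to SOD1 ratio is 6.17 and 4.07 in shCtrl and 0.211 and 0.201 in shFOXK2.

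TXNRD1 and SRXN1, which keep thioredoxin and peroxiredoxins active, were lower in shFOXK2 cells. TXNRD1, the cytosolic selenoprotein that reduces thioredoxin with NADPH (ENSG00000198431.18, chromosome 12, 104215779 to 104350307, plus strand), read 1079 and 1001 CPM in shCtrl and 418 and 492 CPM in shFOXK2. Replicates were close in each group and the groups were far apart. TXNRD1 fell by 1.19 on the log2 scale (SE 0.24, adjusted P = 0.00113, edgeR), to 43.7% of the shCtrl mean. Counts of TXNRD1 relative to those of its substrate thioredoxin (TXN) were 4.59 and 3.30 in shCtrl and 1.26 and 1.54 in shFOXK2. TXN itself read 235 and 303 CPM in shCtrl and 331 and 319 CPM in shFOXK2, a difference that did not pass (log2 0.27, SE 0.23, adjusted P = 0.361, edgeR) and that turned to -0.68 with a GC-content offset and -0.22 with an adenine offset.

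SRXN1 encodes sulfiredoxin, which restores peroxiredoxins inactivated by overoxidation. SRXN1 (ENSG00000271303.2, chromosome 20, 646615 to 653200, minus strand) had the fewest counts of the 9, namely 100 and 108 in the shCtrl libraries against 27 and 20 in shFOXK2, or 4.48 and 6.73 CPM and 1.90 and 1.10 CPM. Every library lay above the detection floor, and the groups were apart. SRXN1 fell by 1.91 on the log2 scale (SE 0.41, adjusted P = 0.00190, edgeR), to 26.6% of the shCtrl mean. Its exons overlap an unnamed protein-coding gene on the same strand (ENSG00000270299), which was not analysed here.

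Of the quinone and heme enzymes, HMOX1 passed the test and NQO1 did not. NQO1, a reductase that detoxifies quinones with NADH or NADPH (ENSG00000181019.13, chromosome 16, 69706996 to 69726668, minus strand), read 436 and 528 CPM in shCtrl and 419 and 547 CPM in shFOXK2. The shCtrl libraries lay inside the range of the shFOXK2 libraries. Means were 482 ± 65.0 and 483 ± 90.3 CPM, a log2 difference of 0.0030 with a 95% interval of -0.52 to 0.53 (adjusted P = 0.994, edgeR). NQO1 is a widely used readout of NRF2 activity, which was not itself measured here.

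HMOX1, the inducible heme oxygenase that opens the heme ring and releases iron (ENSG00000100292.18, chromosome 22, 35380361 to 35394214, plus strand), read 30.2 and 33.1 CPM in shCtrl and 20.3 and 6.59 CPM in shFOXK2. The shCtrl libraries were nearly equal, and the shFOXK2 libraries were both lower but differed by more from each other than replicate 1 did from shCtrl. HMOX1 fell by 1.24 on the log2 scale (SE 0.41, 95% interval -2.11 to -0.37, adjusted P = 0.0219, edgeR). The call rested on shFOXK2 replicate 2, without which the log2 difference was -0.67 (adjusted P = 0.165). Without shFOXK2 replicate 1 it was -2.29. The call was also lost with a GC-content offset (-0.94, adjusted P = 0.0795), with an adenine offset (-0.94, adjusted P = 0.0705) and with scaling by library size alone (-1.21, adjusted P = 0.0606).

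SOD2, the manganese superoxide dismutase of the mitochondrial matrix, had the largest difference of the 9 (ENSG00000291237.1, chromosome 6, 159669069 to 159762529, minus strand). The shCtrl libraries held 25142 and 14384 SOD2 counts and the shFOXK2 libraries 562 and 930, or 1127 and 896 CPM and 39.5 and 51.1 CPM. Both shFOXK2 libraries lay far below both shCtrl libraries. SOD2 fell by 4.48 on the log2 scale (SE 0.28, 95% interval -5.09 to -3.87, adjusted P = 3.65e-07, edgeR), which is 22.3-fold lower, or 4.48% of the shCtrl mean. Its exons overlap those of WTAP and ACAT2 on the opposite strand. WTAP, a subunit of the RNA m6A methyltransferase, read 63.4 ± 11.5 CPM in shCtrl and 74.3 ± 1.24 CPM in shFOXK2 (log2 0.23, SE 0.25, adjusted P = 0.472, edgeR). ACAT2, an acetyl-CoA acetyltransferase, fell by 1.22 (SE 0.27, adjusted P = 0.00216, edgeR), from 41.9 ± 6.67 to 18.0 ± 1.11 CPM.

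SOD1, the copper-zinc enzyme of the cytosol, read 183 and 220 CPM in shCtrl and 187 and 254 CPM in shFOXK2. The groups overlapped, and the log2 difference of 0.13 (SE 0.24, adjusted P = 0.683, edgeR) did not pass. SOD2 counts were 6.17 and 4.07 per SOD1 count in shCtrl and 0.211 and 0.201 in shFOXK2. The ratio was lower in both shFOXK2 libraries, with an exact permutation P of 0.333.

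**Figure D3:**
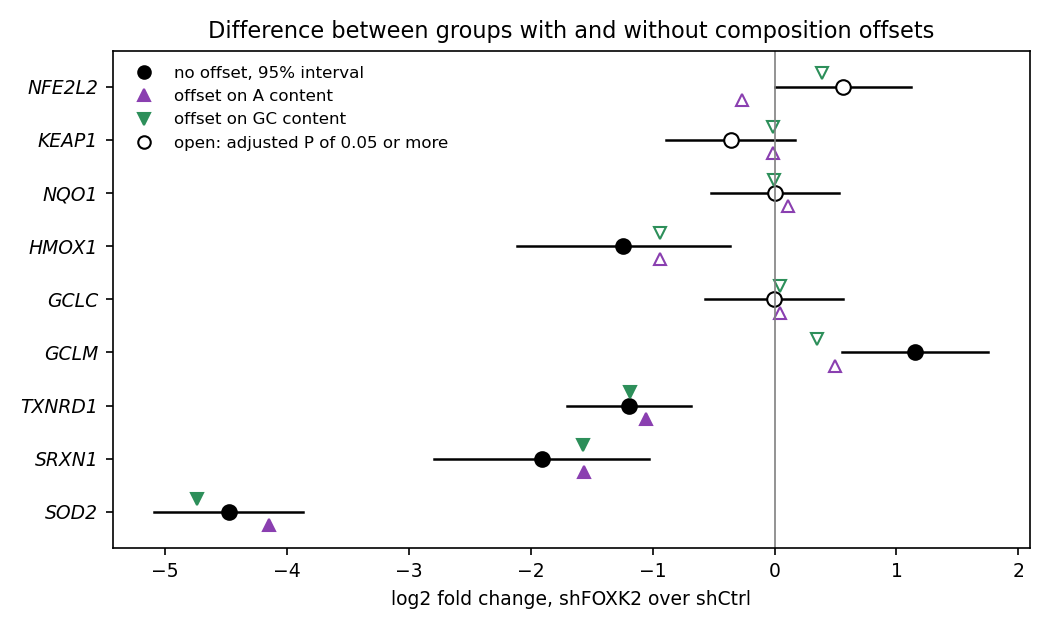
Log2 fold change of each gene, shFOXK2 over shCtrl, with its 95% interval (circles and bars) and the values after smooth offsets on adenine content (upward triangles) or GC content (downward triangles); filled symbols have an adjusted P under 0.05 and open ones 0.05 or more. TXNRD1, SRXN1 and SOD2 are filled in all 3 fits, GCLM and HMOX1 only without an offset, and NFE2L2 crosses 0 with the adenine offset.

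Levels of different genes were compared per kilobase of the canonical transcript in GENCODE v44. In shCtrl the order of mean CPM per kilobase was TXNRD1 (269 ± 14.4), NQO1 (191 ± 25.8), SOD2 (71.4 ± 11.5), KEAP1 (47.7 ± 10.6), NFE2L2 (36.7 ± 9.63), HMOX1 (20.3 ± 1.32), GCLC (9.87 ± 1.79), GCLM (4.96 ± 0.555) and SRXN1 (2.22 ± 0.628). Of these neighbours, KEAP1 and NFE2L2 overlapped between libraries. In shFOXK2 it was NQO1 (191 ± 35.8), TXNRD1 (118 ± 13.6), NFE2L2 (54.1 ± 8.18), KEAP1 (37.1 ± 1.39), GCLM (11.0 ± 3.02), GCLC (9.84 ± 1.06), HMOX1 (8.66 ± 6.24), SOD2 (3.20 ± 0.578) and SRXN1 (0.593 ± 0.224). GCLM overlapped with GCLC there, and GCLC with HMOX1. NQO1 thus stood above TXNRD1 in shFOXK2 and below it in shCtrl, with the canonical, the longest and the median coding length alike. NFE2L2 stood above KEAP1 in shFOXK2 with the canonical length but below it with the longest transcript (25.9 and 36.0) and with the median coding length (52.6 and 93.9). The place of SOD2 also depended on the length taken. Its canonical transcript is 14.167 kb and the median of its protein-coding transcripts is 0.917 kb, with which SOD2 ranked 1 in shCtrl and 5 in shFOXK2 instead of 3 and 8.

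The remaining genes of the antioxidant system were described from 7 lists arranged by role, with 90 genes in all, of which 89 were tested and GSTM2 was left by the filter (2, 1, 0 and 0 counts). Of the 89, 35 fell and 7 rose, so 39.3% were lower beside 22.7% of all tested genes, and 7.87% were higher beside 25.7%. The lists were chosen with earlier results of these data known. These shares and those of each list below are therefore descriptions and not tests. With a GC-content offset 34 fell and 13 rose, beside 3946 and 4752 of all 16417 tested genes. With an adenine offset 32 fell and 13 rose, beside 3786 and 4626. The median log2 fold change was -0.39. In 60 of the 89 the groups did not overlap, which stands beside 75.4% of all tested genes.

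Partners and regulators of NRF2 (14 tested) held 8 lower and 0 higher genes, with a median of -0.98. The lower genes were 57.1% of this list, beside 22.7% of all tested genes called lower and 25.7% called higher. BACH2, a repressor related to BACH1, fell by 2.74 (SE 0.43, adjusted P = 0.000226, edgeR), from 112 and 58 counts in the shCtrl libraries to 8 and 13. Small MAF proteins are the dimer partners of NRF2. MAFF fell by 1.80 (42.2 and 49.8 CPM in shCtrl, 12.6 and 13.7 CPM in shFOXK2), and MAFK fell by 1.80 (71.8 and 80.3 CPM, 23.3 and 20.5 CPM). The third, MAFG, read 62.3 and 73.7 CPM in shCtrl and 105 and 80.0 CPM in shFOXK2 (log2 0.45, SE 0.25, adjusted P = 0.159, edgeR), and it passed with a GC-content offset (0.76, adjusted P = 0.00692) and an adenine offset (0.78, adjusted P = 0.00514). SQSTM1, the autophagy receptor p62 that sequesters KEAP1, read 1085 and 1384 CPM in shCtrl and 482 and 282 CPM in shFOXK2, and fell by 1.69 (SE 0.29, adjusted P = 0.000394, edgeR). BACH1 differed between the shCtrl libraries, with 82.0 and 31.2 CPM against 31.8 and 44.9 CPM in shFOXK2. Its difference was -0.56 (SE 0.37, adjusted P = 0.231, edgeR), -1.17 without shCtrl replicate 2 (adjusted P = 0.000680), 0.26 without shCtrl replicate 1 (adjusted P = 0.513), and it passed with a GC-content offset (-1.15, adjusted P = 0.00863) and an adenine offset (-0.95, adjusted P = 0.0193).

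Glutathione genes (21 tested) held 7 lower and 1 higher, with a median of -0.46. That is 33.3% lower and 4.76% higher, beside 22.7% and 25.7% of all tested genes. The 1 higher was SLC7A11, the cystine importer that supplies cysteine for glutathione, with 45.0 and 11.3 CPM in shCtrl and 114 and 140 CPM in shFOXK2. The shCtrl libraries differed widely from each other, and both lay below shFOXK2. Its log2 fold change was 2.17 (SE 0.46, adjusted P = 0.00166, edgeR), 3.46 without shCtrl replicate 1, 1.42 without shCtrl replicate 2 and 1.30 with a GC-content offset (adjusted P = 0.0163). Among the lower genes, GSTM4, a glutathione transferase, fell by 2.99 (SE 0.36, adjusted P = 3.53e-05, edgeR), although it is a member of a family of near-identical genes among which reads can be split. CHAC1, which degrades glutathione inside the cell, fell by 2.90 (80 and 101 counts, 11 and 10 counts), and GGT1, which cleaves it outside, fell by 2.45 (89.7 and 110 CPM, 16.7 and 19.9 CPM). SLC7A11 thus moved opposite to CHAC1 and GGT1. GSS, the glutathione synthetase, was also lower (-0.78, SE 0.24, adjusted P = 0.0150, edgeR). SLC3A2, also on this list, did not pass (0.66, SE 0.26, adjusted P = 0.0527, edgeR). GSS and SLC3A2 were added after their values were seen. GSR, the reductase that recycles oxidized glutathione, read 54.6 and 64.5 CPM in shCtrl and 46.6 and 57.7 CPM in shFOXK2, a log2 difference of -0.19 that did not pass (SE 0.25, adjusted P = 0.557, edgeR) and was 0.11 with an adenine offset.

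Thioredoxin and peroxiredoxin genes (15 tested) held 4 lower and 0 higher, with a median of -0.14. The 26.7% lower stands beside 22.7% of all tested genes, and 48.4% of all tested genes were called in either direction. Each of the 4 calls was lost without at least 1 library. SESN2, a stress-induced sestrin, fell by 1.06 (12.9 and 15.3 CPM, 8.37 and 5.22 CPM; SE 0.33, adjusted P = 0.0167, edgeR). TXNIP, the inhibitor of thioredoxin, fell by 0.89 (95.3 and 108 CPM, 72.2 and 37.9 CPM; SE 0.30, adjusted P = 0.0258, edgeR). Both calls were lost without shFOXK2 replicate 2 (-0.78, adjusted P = 0.108, and -0.52, adjusted P = 0.243), and TXNIP was -1.45 without shFOXK2 replicate 1 and -0.66 with an adenine offset (adjusted P = 0.0748). The TXNIP call was also lost, narrowly, with scaling by library size alone (-0.85). SESN2 was -0.70 with an adenine offset (adjusted P = 0.0466). MSRB1, a methionine sulfoxide reductase, fell by 0.78 (74.0 and 102 CPM, 52.4 and 49.8 CPM), a call lost without shCtrl replicate 2 (-0.61) or shFOXK2 replicate 2 (-0.78) and with a GC-content (-0.44) or adenine offset (-0.42). PRDX1, a peroxiredoxin of the cytosol, fell by 0.65 (413 and 492 CPM, 295 and 281 CPM), a call lost without shCtrl replicate 2 (-0.60), shFOXK2 replicate 1 (-0.72) or shFOXK2 replicate 2 (-0.65) and with an adenine offset (-0.31).

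The other superoxide dismutases and catalase (4 tested) held 1 lower and 1 higher gene, with a median of 0.19. These shares, 25% each, are near the 22.7% lower and 25.7% higher of all tested genes. CAT, the peroxisomal catalase, read 121 and 127 CPM in shCtrl and 27.7 and 43.9 CPM in shFOXK2, and fell by 1.79 (SE 0.28, adjusted P = 0.000192, edgeR). SOD3, the secreted superoxide dismutase, read only 1 and 2 counts in the shCtrl libraries, under the detection floor, against 40 and 51 in shFOXK2. Its scaled ratio of summed counts was 35.9 (exact 95% interval 11.9 to 177, which covers counting error only), and the difference passed (adjusted P = 3.40e-05, edgeR). Its fitted log2 fold change was 5.03, 4.38 without shCtrl replicate 1 and 5.70 without shCtrl replicate 2. SOD2 and SOD3 thus moved in opposite directions, from very different levels.

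NADPH, which feeds both the glutathione and thioredoxin systems, is supplied by 8 genes tested here, of which 4 fell and 0 rose (median -0.68). The 50% lower stands beside 22.7% of all tested genes, of which 25.7% were higher. IDH1, the cytosolic isocitrate dehydrogenase, dropped from 5171 and 3387 counts to 452 and 911, and fell by 2.43 (SE 0.27, adjusted P = 2.12e-05, edgeR). PGD, a dehydrogenase of the pentose phosphate pathway, read 205 and 244 CPM and then 88.8 and 96.1 CPM, and fell by 1.28 (SE 0.23, adjusted P = 0.000651, edgeR). ME1, the cytosolic malic enzyme, fell by 0.85 and NNT, the mitochondrial transhydrogenase, by 0.80. The ME1 call was lost without shCtrl replicate 1 (-0.65, adjusted P = 0.0817) or shFOXK2 replicate 2 (-0.77, adjusted P = 0.107), and the NNT call without shFOXK2 replicate 1 (-0.66, adjusted P = 0.129). With a GC-content offset the differences were larger, -1.37 for ME1 and -1.28 for NNT. With an adenine offset they were -1.40 for ME1 and -1.05 for NNT.

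Detoxifying reductases and conjugation genes (18 tested) held as many higher as lower, 5 each, with a median of -0.18. These shares, 27.8% each, are near the 22.7% lower and 25.7% higher of all tested genes. AKR1B1 and AKR1B10 are aldo-keto reductases of the same subfamily. AKR1B1 read 650 and 842 CPM in shCtrl and 109 and 134 CPM in shFOXK2, and fell by 2.62 (SE 0.26, adjusted P = 7.63e-06, edgeR). AKR1B10 read 6.36 and 8.22 CPM in shCtrl and 21.8 and 68.3 CPM in shFOXK2, a log2 difference of 2.63 (SE 0.44, adjusted P = 0.000335, edgeR) that was 1.55 without shFOXK2 replicate 2. These related genes moved in opposite directions. Whether reads were shared with related genes was not examined. ALDH3A1, an aldehyde dehydrogenase, had 21 and 19 counts in the shCtrl libraries and 41 and 349 with the FOXK2 hairpin. Its difference of 3.39 on the log2 scale (SE 0.68, adjusted P = 0.00117, edgeR) was 1.42 without shFOXK2 replicate 2 (adjusted P = 0.00733). ABCC2, an exporter of conjugates, rose by 1.69 from 13 and 7 counts to 22 and 33 (SE 0.46, adjusted P = 0.00794, edgeR), a call lost without shCtrl replicate 2 (1.45, adjusted P = 0.0976) and by the DESeq2 Wald test (adjusted P = 0.0675).

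Heme and iron genes (9 tested) held 6 lower and 0 higher, with a median of -0.73. The 66.7% lower stands beside 22.7% of all tested genes, of which 25.7% were higher. BLVRA, the biliverdin reductase that acts after heme oxygenase, read 86.9 and 107 CPM in shCtrl and 25.4 and 39.9 CPM in shFOXK2, and fell by 1.57 (SE 0.28, adjusted P = 0.000578, edgeR). FTH1, the ferritin heavy chain, read 950 and 1160 CPM and then 488 and 328 CPM, and fell by 1.37 (SE 0.26, adjusted P = 0.000915, edgeR). FTL, the ferritin light chain, read 2339 and 3008 CPM in shCtrl and 3103 and 2374 CPM in shFOXK2, with overlapping groups and a log2 difference of 0.035 (SE 0.27, 95% interval -0.54 to 0.61, adjusted P = 0.928, edgeR). Pseudogenes of both ferritin chains are known and can share their reads. FECH, which inserts iron in the last step that makes heme, fell by 1.19 (SE 0.29, adjusted P = 0.00415, edgeR). SLC40A1, the iron exporter ferroportin, fell by 1.36 (190 and 60 counts in shCtrl, 29 and 50 in shFOXK2), and this was -0.67 without shCtrl replicate 1 (adjusted P = 0.294).

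**Figure D4:**
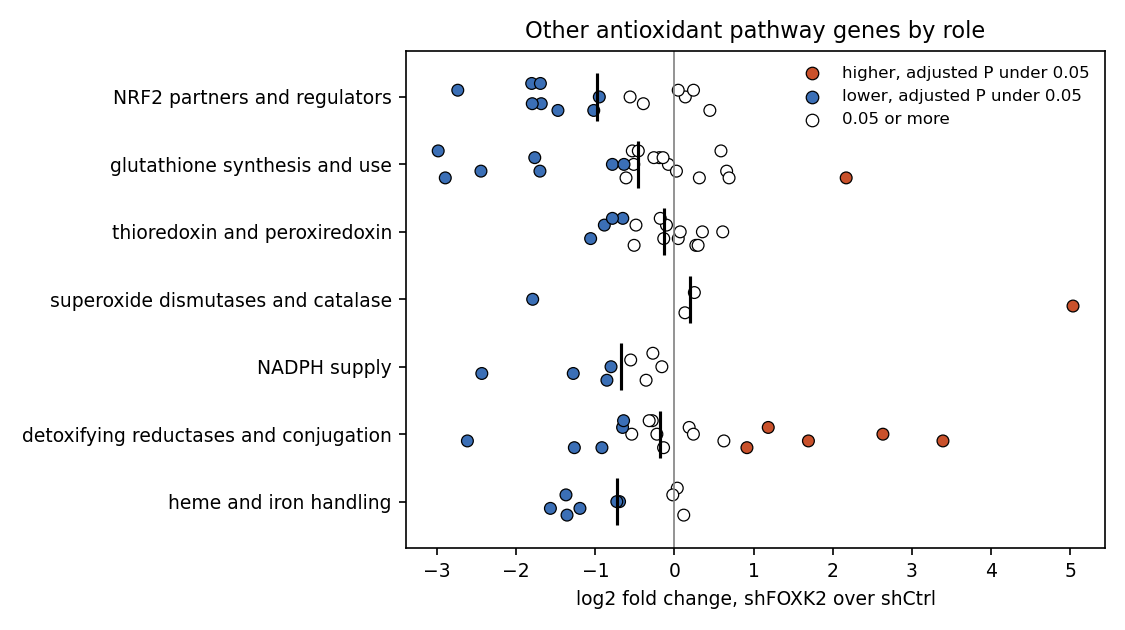
Log2 fold change, shFOXK2 over shCtrl, of the 89 tested genes of the 7 lists, with 1 point per gene and a vertical line at the list median; blue points fell, orange points rose, and white points had an adjusted P of 0.05 or more. Lower genes outnumber higher ones in 5 lists, and the counts are equal for dismutases with catalase (1 each) and for detoxifying genes (5 each); the far right point is SOD3, whose fitted value rests on 1 and 2 counts in shCtrl.

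Promoter windows were matched for 72 of the 90 listed genes. The ARE core was present in 18 of them, of which 7 fell, 0 rose and 11 did not pass. It was absent from 54, of which 22 fell, 4 rose, 27 did not pass and 1, GSTM2, was left by the filter. The share that fell was similar with and without the core. Of all tested genes, 22.7% were called lower and 25.7% higher, and 16.1% of 27305 genes with windows held the core. SLC7A11, AKR1B10 and ALDH3A1, which rose, had no window and were not searched. The AP-1 motif was present in 6 and the forkhead motif in 4. PGD and IDH1, which fell, and GSTP1, with a difference of -0.077 (SE 0.26, adjusted P = 0.830, edgeR), are among the genes with a core; GSTP1 was chosen after its values were seen.

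Genes with profiles most like those of SOD2, SRXN1 and HMOX1, the members with the largest differences without an offset, were found by Euclidean distance of log2 CPM over the 4 libraries, each taken relative to its shCtrl mean, among 9923 genes whose log2 CPM averaged 3 or more. Nearest to SOD2 were CX3CL1 (distance 0.407), a membrane-bound chemokine, MMP24 (0.504), a membrane-type metalloproteinase, and CREB3L1 (0.603), a membrane-bound transcription factor. Nearest to SRXN1 were YIPF2 (0.196), SQSTM1 (0.224) and SEMA7A (0.234), of which SQSTM1 is also on the list of NRF2 regulators. Near to HMOX1 were HLA-B (0.369), an MHC class I heavy chain, and SLC12A7 (0.431), a potassium-chloride cotransporter. The genes named here as near were all lower in shFOXK2, and with 4 libraries the distance mostly reflects the size of the difference between groups. HMOX1 was only narrowly ahead of TXNRD1 (-1.24 and -1.19), and behind it with a GC-content offset (-0.94 and -1.19) and without shFOXK2 replicate 2 (-0.67 and -1.35).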

How the data were processed

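Reads were sequenced from polyadenylated RNA of 2 shCtrl and 2 shFOXK2 OVCAR5 libraries. Per the labels, the authors aligned them to GRCh38 with STAR 2.5.2 and counted reads per gene with HTSeq; they deposited raw counts per gene symbol. The version and strand setting of HTSeq and the annotation are not given in the sources used here. Groups and replicate numbers came from sample titles.

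Genes were filtered with filterByExpr, scaled by TMM and compared with edgeR 4.0.16 (R 4.3.3) by its quasi-likelihood F test, which is 2-sided. P values were adjusted by the Benjamini-Hochberg method across the 16417 genes tested, with a threshold of 0.05. SE was derived from the log2 fold change and its F statistic. CPM are TMM-scaled, given as mean ± SD of 2 libraries. Intervals of log2 differences come from the fit and include the spread between replicates. The floor and the SOD3 ratio interval cover counting error only.

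The members and lists were chosen with earlier results of these data known. Named genes were the 9 members, FOXK2, up to 4 genes per list past the threshold without overlap (largest change first), genes named regardless (BACH1, MAFG, SQSTM1, SLC7A11, GSR, TXN, PRDX1, SOD1, CAT, FTH1 and FTL), and the 3 nearest profiles of the 3 members with the largest change. Some genes that the rule named are not reported here.

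Positions, lengths and composition came from GENCODE v44 (hg38), and promoter sequences from RefSeq (GRCh38.p14). Composition was known for 14513 tested genes (88.4%). Replicates differed by more than counting noise (chi-square per gene 38.1 in shCtrl and 27.9 in shFOXK2). Alternatives were DESeq2 1.42.0 (size factors, Wald test), library size alone, 2 other filters, the replicate number as a block, lowess offsets (span 0.2) on GC content, also with the block, or on adenine content, each library left out, and other transcript lengths. A crossed block and a median transcript length were chosen after seeing the data.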

Additional observations from a re-analysis of the deposited data

How the results depend on the processing

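TXNRD1, SRXN1 and SOD2 kept their direction and call under all 9 alternatives (log2 -1.30 to -1.06, -2.01 to -1.56 and -4.75 to -4.14) and without each of the 4 libraries (-1.35 to -1.11, -2.36 to -1.58 and -4.71 to -4.33). The number of the 9 genes past the threshold was 5, 4 with library size alone, 4 with the GC-content offset and block, and 3 with a GC-content or adenine offset alone. It was 4 to 6 without each library. The offsets moved the median of all genes by 0.14 (GC content) and 0.18 (adenine), and testing without a filter moved it by -0.10. HMOX1 was lost with library size alone (-1.21), the GC-content offset (-0.94) and the adenine offset (-0.94), and ranged from -2.29 to -0.67 without each library. GCLM was lost with the GC-content offset (0.35), that offset with the replicate block (0.33) and the adenine offset (0.49), and ranged from 0.82 to 1.38 without each library. NFE2L2 was -0.27 with the adenine offset and 0.24 to 0.82 without each library.

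NQO1 and GCLC, whose differences were near 0, changed sign. NQO1 was -0.015 with DESeq2 size factors, -0.099 without a filter, -0.0033 with the replicate block, -0.0024 with the GC-content offset and -0.015 by the DESeq2 Wald test, and -0.23 to 0.16 without each library. GCLC was 0.025 with library size alone, 0.041 with at least 10 counts in every library, 0.0025 with the block, 0.045 with the GC-content offset and 0.045 with that offset and the block, and 0.046 with the adenine offset, and -0.25 to 0.16 without each library. Among listed genes, GSR was 0.11 with the adenine offset, TXN was -0.68 with the GC-content offset, -0.60 with that offset and the block (adjusted P = 0.0222, edgeR) and -0.22 with the adenine offset, and FTL was -0.066 without a filter. Without each library BACH1 ranged from -1.17 to 0.26, SOD1 from -0.14 to 0.31 and FTL from -0.20 to 0.18. The cause was not tested.

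Replicate numbers are shared between groups, but no label says what they share, and deviations of same-numbered libraries correlated at -0.11. Under a block on replicate number, 7270 genes, 5 of the 9 members and 35 of the 89 listed genes passed, and with crossed numbers 8350, 6 and 47 did. The block also ended the calls of MSRB1 (-0.77, adjusted P = 0.0511, edgeR) and PRDX1 (-0.65, adjusted P = 0.0704, edgeR). Over all alternatives 6008 to 9207 genes and 35 to 50 listed genes passed, and without each library 6771 to 7775 and 31 to 42. Depth limits most the genes with few counts, SRXN1, SOD3, CHAC1, BACH2, ABCC2 and ALDH3A1.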
